A study of Zea mays with 24 samples.

Results

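The 3 arrays described here, of 24 in all, set root RNA of the maize variety Fergus grown in the cold against root RNA of the variety Picker grown under the control regime. They were chosen by their titles, which number the varieties and put the cold RNA first and the control RNA second, and by the variety labels, which give Fergus and Picker. There was 1 array in each of 3 biological replicates. Fergus and Codisco were the less chilling tolerant varieties of the study, and Picker and PR39B29 the more tolerant ones. Cold roots were kept at 12 °C for 16 h and at 6 °C for 8 h of each day. Control roots were kept at 18 °C for 16 h and at 12 °C for the rest, which the labels give as 6 h. All seedlings were grown in the dark, so both groups share that condition, and the control regime is itself below the optimum of maize. The tissue is labelled primary root, with an age of 8 days post-germination in the labels, from which the methods of the study differ. Each array is a link of a loop: in each replicate 4 direct arrays compare the 2 regimes within a variety and 4 linking arrays join the cold RNA of a variety to the control RNA of another. The Fergus and Picker direct arrays of the same replicate are used beside the linking arrays, because the linking ratio holds both the response to cold and the difference between the varieties.

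Maize comes from the tropics, and chilling slows the growth of its roots at seedling emergence. Chilled and water-stressed plants are known to share part of their transcript response: abscisic acid and loss of water raise late embryogenesis, ASR (abscisic acid, stress, ripening) and r40 type proteins, while defence proteins, peroxidases and proteases are remodelled. A ratio between 2 varieties adds transcripts whose level, or whose sequence under the probe, differs between the genotypes. On a spotted array of oligonucleotide probes a sequence difference and a difference in transcript level cannot be told apart.

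Primers used by the study for quantitative PCR identify 3 of the transcripts on which the results below turn. MZ00003507, an RNA binding protein, gave the only call between the varieties when each comparison was tested on its own arrays, MZ00041708, an unknown protein, was called in the fit of all 24 arrays, and MZ00004486, pathogenesis related protein 1 (PR-1), is a defence protein on which the replicates disagree. The primers are written 5′ to 3′, each of 20 bases, and the probe sequences themselves were not used here.
MZ00003507 forward: ttcggatcctgtcttccatc
MZ00003507 reverse: actccacgaaagcatcaagg
MZ00041708 forward: ttgctgctcttcaccttcct
MZ00041708 reverse: acaacaatggcttccctgaa
MZ00004486 forward: gagcaacgtgattggacaga
MZ00004486 reverse: gcatatgcggggagaacata

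Each value is an M-value, the log2 ratio of the 2 channels, on which 1 unit is a 2-fold difference. By the titles and by the dye labels a positive M-value on these 3 arrays means more Fergus cold RNA than Picker control RNA, and the values are given with that sign. By the dye labels the dyes were not exchanged between these 3 arrays. A dye effect of a probe therefore cannot be told apart from a ratio of 1 sign on all 3. The direction is not settled, however. On the direct arrays the titles name control first while the dye labels put cold in the numerator, so the 2 sources disagree there. The 8 ratios of a loop should sum to about 0, and their sum had a scaled median absolute deviation of 1.53, 2.40 and 1.40 in replicates 1, 2 and 3 when every array was read in title order. With the dye labels the sum spread over 3.41, 3.37 and 4.77. This sets the direct arrays against the linking arrays in title order, but it is the same when the sign of all arrays is turned. The study lists MZ00041708 as raised and MZ00005992 as lowered by cold in Picker. It also reports a strong correlation of its array values with quantitative PCR. A fit of all 24 arrays in title order gave the same signs for the Picker response, 2.75 and −2.52. Not every listed probe had the listed sign: MZ00017067, listed as raised in Picker, had 0.14, 0.53 and 0.79 as control over cold in title order.

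Spots without a value bear on the sign. On average 91.7% of blank spots had no value on an array, against 41.8% of gene spots, and the share of gene spots without a value differed between arrays, from 0.65% to 57.9%. Why a value was missing was not tested. For 172 genes a value was present on all Fergus direct arrays and on no Picker direct array. Of these, 24 of 66, 36 of 99 and 15 of 50 measured values were positive on the linking arrays of replicates 1, 2 and 3, with medians of −0.18, −0.25 and −0.29. For 31 genes measured on all Picker direct arrays and on no Fergus direct array, 11 of 13, 17 of 23 and 13 of 19 values were positive, with medians of 1.89, 1.86 and 1.58. Genes measured in Fergus only thus had mostly negative ratios and genes measured in Picker only mostly positive ones. If a missing value marks little RNA, that is the opposite of the title reading. This check was chosen after the data were seen. The other linking arrays showed the same where it could be looked at, except the Picker cold against PR39B29 control array of replicate 2. On the PR39B29 cold against Codisco control and the Codisco cold against Fergus control arrays only genes measured in Codisco could be looked at. There were 0 genes measured only in PR39B29 or only in Fergus for those comparisons. With the sign turned, each positive value below means more Picker control RNA, and each response to cold on a direct array turns with it. Sizes, p-values and the agreement between arrays do not depend on the sign.

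**Figure D1:**
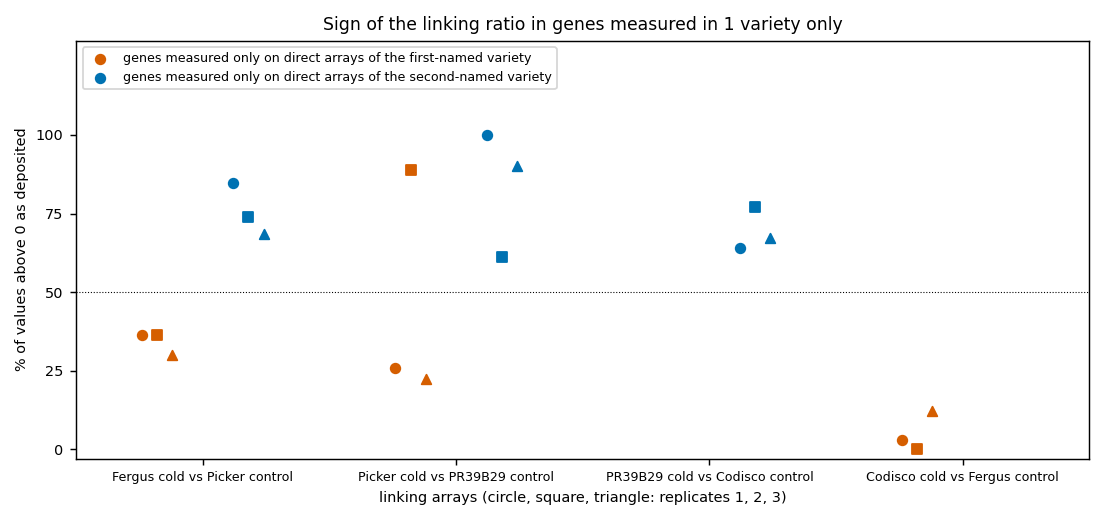
Percentage of values above 0 as deposited (y axis) on the 4 kinds of linking array (x axis), for genes with values on all direct arrays of 1 of the 2 varieties and on none of the other; circles, squares and triangles are replicates 1, 2 and 3. On the Fergus cold vs Picker control arrays the genes measured in Fergus only lie between 30.0% and 36.4% and those measured in Picker only between 68.4% and 84.6%, the opposite of the order that the titles give if a missing value marks little RNA.

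A value was present on all 3 linking arrays for 19463 of 43393 genes, on 2 arrays for 5381, on 1 for 6336 and on none for 12213. The array of replicate 1 stood apart from the others. Its Spearman correlation was 0.02 with replicate 2 and −0.13 with replicate 3, while replicates 2 and 3 correlated at 0.61, across genes, which are not independent replicates. Within replicate 1 this array correlated at −0.60 with the PR39B29 and −0.52 with the Codisco direct array, neither of which shares RNA with it. With the Fergus and Picker direct arrays, which share RNA with it, the correlations were −0.38 and −0.15. In Fergus the direct array of replicate 1 correlated at 0.14 and 0.30 with replicates 2 and 3, against 0.43 between them. In Picker the values were 0.27 and 0.20, against 0.70. The cause was not tested. The linking array of replicate 1 was also the narrowest, with a scaled median absolute deviation of 0.59, against 0.84 in replicate 2 and 0.99 in replicate 3. The arrays of replicates 2 and 3 also held outlying single values, the lowest −29.42. A further pair of arrays in the loop, PR39B29 control vs PR39B29 cold and Picker cold vs PR39B29 control of replicate 2, had nearly the same values (r = 0.99 over 22672 genes) although their labels differ. Both correlated at 0.82 with the PR39B29 direct array of replicate 1. The Picker cold vs PR39B29 control array of replicate 2, the exception in the sign check above, correlated at 0.06 and 0.10 with its own kind in replicates 1 and 3. Why was not tested. The 2 near-identical arrays enter the variance filter, the loop sums and the fit of all 24 arrays, but none of the ratios tested on the Fergus and Picker arrays.

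**Figure D2:**
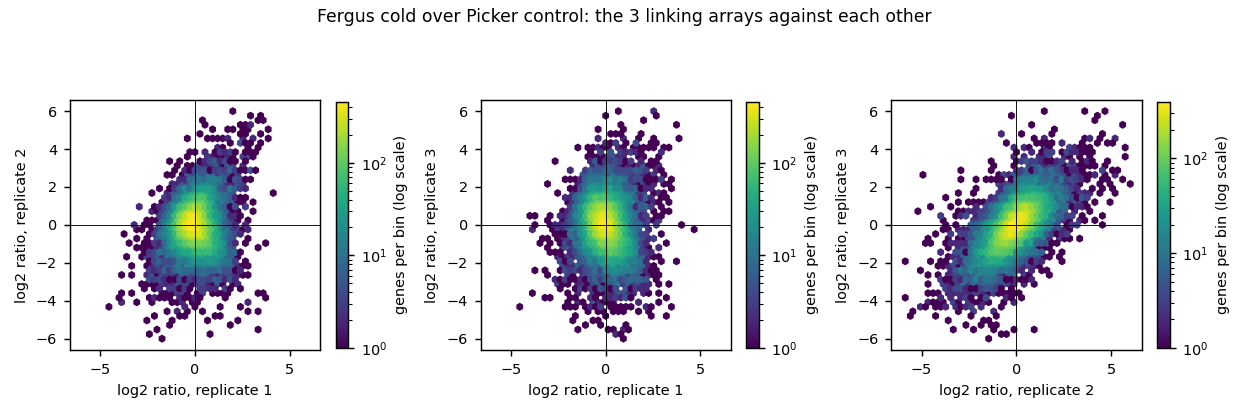
Log2 ratios of the 19463 genes with a value on all 3 linking arrays, each panel setting 2 replicates against each other within ±6; colour gives the number of genes per bin on a log scale. The cloud runs along the diagonal for replicates 2 and 3 (Spearman correlation 0.61) and along no diagonal for replicate 1 against either (0.02 and −0.13).

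No gene was called on the 3 linking arrays alone. With limma, after keeping the most variable 40% of genes, 4587 genes were tested and 0 (0%) had an adjusted p under 0.05, the lowest adjusted p being 0.149, while 839 (18.3%) had an unadjusted p under 0.05, 500 positive (10.9%) and 339 negative (7.39%). That last count rested on which arrays entered: it was 2284 of 5724 genes without replicate 1, 239 of 4827 without replicate 2 and 503 of 5431 without replicate 3. Fitting all 24 arrays of the loop in title order brings in the indirect routes from Fergus cold to Picker control and needs a value on every array. By the titles each RNA enters 2 arrays of its replicate. The fit took the arrays as independent, so its p-values take no account of this sharing. It called 105 of 1705 genes (6.16%), 66 positive (3.87%) and 39 negative (2.29%), the other way round with the sign turned. Of the 105, 103 had the same sign on the 3 linking arrays, which enter that fit. Without the near-identical pair the fit called 75 of 1761 genes, 67 of them among the 105, and without the linking array of replicate 1 it called 309 of 1717, 100 of them among the 105. Genes named below as called in the fit of 24 arrays are those of the full fit and are not marked for these alternatives.

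Of the 5 smallest unadjusted p-values on the linking arrays, 3 belonged to positive probes with no product in the sources used. MZ00032354 had M-values of 4.84, 6.04 and 6.31 in replicates 1, 2 and 3 (mean 5.73 ± 0.78, SD over 3 replicates, as throughout). It differed in the same sense on the direct arrays turned to cold over control, with 4.01, 6.33 and 4.49 in Fergus and 5.70, 5.80 and 3.14 in Picker. The values of the 3 comparisons overlapped, and the difference between the varieties under the control regime was 0.83, −0.28 and 1.82, so the linking ratio of this probe was about the size of either response to cold. MZ00026953 had 3.85, 4.43 and 4.67 on the linking arrays, beside 2.93, 5.40 and 5.37 in Fergus and 1.69, 5.84 and 11.55 in Picker. MZ00031891 had 4.19, 6.26 and 7.27, beside 0.28, 3.78 and 4.27 in Fergus and 3.70, 5.32 and 4.08 in Picker. Its Fergus response lay below its linking ratio in every replicate, which left 3.91, 2.48 and 3.00 between the varieties under control (adjusted p = 0.164). MZ00015755, with the next highest mean after the ribosomal protein described below, rested on 1 array, with 2.33, 4.22 and 14.49. The lowest means among probes of 1 sign were spread as widely: MZ00033428 had −0.35, −9.79 and −8.88, MZ00038896 −2.03, −4.71 and −10.07, and MZ00014363 −1.81, −3.18 and −10.53. None of these was called.

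Of 64 probes whose products the study lists, 59 had a value on all 3 linking arrays, and 26 were positive and 20 negative on all 3. Over all genes with 3 values 17.0% were positive and 15.6% negative on all 3. The study chose these probes for their response to cold in PR39B29 or in Picker, and lists none for Fergus. The r40g3, protease, phosphoenolpyruvate carboxykinase and NAC1 probes below were listed for PR39B29 only. Of the RNA behind the lists, the linking arrays hold only that of Picker control. The lists and the linking ratios come from the same loop, so the counts of these probes are not independent evidence. None of the 58 tested was called on the linking arrays, where 26 were positive and 19 negative with an unadjusted p under 0.05, against 10.9% and 7.39% of all genes tested. In the fit of 24 arrays 16 of the 30 with a value on every array were called, 10 positive and 6 negative, against 3.87% and 2.29% of all genes in that fit.

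The probes of water stress and abscisic acid had positive ratios, with 1 exception. MZ00042906, an r40g3 protein of a family known from rice roots treated with abscisic acid and salt, had 2.94, 5.24 and 2.62 in replicates 1, 2 and 3. A second r40g3 probe, MZ00042908, had 2.89, 5.21 and 2.50. Both were called positive in the fit of 24 arrays, with 3.93 ± 0.95 and 3.80 ± 0.95 (SE, adjusted p = 0.0286 each). The putative ASR2, MZ00041306, had 2.84, 3.55 and 1.66, and MZ00041500, like a water stress inducible protein, 1.27, 2.48 and 1.99. The 22 kDa drought-inducible protein MZ00023411 differed from the rest of the list, with 0.18, −0.64 and 0.52 around 0. Of the 5 probes, 4 were positive on all 3 arrays, and the list had medians of 2.84, 3.55 and 1.99, against 0.01, 0.00 and 0.02 over all genes.

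Proteases had ratios of the same sign and smaller size. The vacuolar processing enzymes, which cut proteins in storage and lytic vacuoles, were close to each other: the legumain-like protease MZ00041333 had 1.74, 1.86 and 1.34 and the C13 endopeptidase MZ00041334 had 1.63, 2.10 and 1.14. The aspartic proteinase MZ00043603 had 1.04, 2.65 and 1.96. The putative metacaspase MZ00032919, of a family tied to cell death, had 1.26 and 2.53 in replicates 1 and 3 and no value in replicate 2.

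Phosphoenolpyruvate carboxykinase, MZ00013532, which turns oxaloacetate into phosphoenolpyruvate for sugar synthesis and pH balance, had 2.60, 3.41 and 2.67 on the linking arrays. Its direct arrays gave 2.51, 3.07 and 2.26 in Fergus and 2.83, 3.64 and 2.96 in Picker. All 3 comparisons ranked replicate 2 highest and lay within about 1 unit of each other, and on these arrays the varieties differed by 0.08, 0.34 and 0.40 under control. It was called in the fit of 24 arrays at 3.56 ± 1.07 (adjusted p = 0.0481). That fit put the difference under control higher, at 1.61, and the Fergus response lower, at 1.95 (adjusted p = 0.215), neither of them called. NAC1, MZ00022590, a putative transcription factor of the NAC family, had 2.05, 1.63 and 2.94 and was called there at 2.20 ± 0.67 (adjusted p = 0.0497). The putative PGPD14 protein MZ00031569 had 2.72, 4.08 and 3.21 and had no value on every array of the loop.

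Defence proteins had the opposite sign in most values. The pair of pZSS2 probes, for a transcript induced by glucose starvation or defence, agreed closely across replicates: MZ00037140 had −2.48, −2.86 and −3.16 and MZ00040560 had −2.62, −3.20 and −3.21. The putative chitinase MZ00027910, which cleaves fungal cell walls, had −1.27, −3.97 and −1.57. PR-1, MZ00004486, was 0.68 in replicate 1 and −7.28 and −4.54 in replicates 2 and 3. The spread of PR-1 (SD 4.04) exceeded its mean of −3.71. All 4 had an unadjusted p under 0.05 (7.39% of tested genes were negative at that level) and none was called.

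The subunit probe of ribulose bisphosphate carboxylase, MZ00005992, the carbon-fixing enzyme of green tissue, was negative in every replicate, with −2.57, −2.78 and −2.97 (mean −2.77 ± 0.20, SD). It was called in the fit of 24 arrays at −2.65 ± 0.76 (adjusted p = 0.0390). The Fergus direct arrays gave −2.59, −2.27 and −2.80, and the Picker ones −3.65, −3.03 and −0.51. The putative MtN21, MZ00029892, like a nodulin transporter, had −1.27, −2.58 and −4.19 and was called there at −2.94 ± 0.68 (adjusted p = 0.0243).

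Markers of root tissue differed in sign. The root-specific protein RCc3, MZ00015009, had 1.79, 3.22 and 2.99 and was called in the fit of 24 arrays at 3.37 ± 0.97 (adjusted p = 0.0392). Root cap protein 2, MZ00032161, a marker of the cap that covers the root tip, had −0.27, −7.93 and −3.48. The lipid transfer protein MZ00026029 had −0.22, −2.10 and −3.24, and the O-methyltransferase ZRP4, MZ00017851, known from the root endodermis of maize, −0.37, −0.10 and −0.53. A ratio shows no level, so the labelled tissue could not be checked from these values. Whether the groups differed in their share of cell types was not tested, and fewer cells of a type and less RNA per cell cannot be told apart in whole roots.

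Peroxidases, which cross-link cell walls and consume peroxide, split. MZ00026737 had 3.39, 4.13 and 1.13, MZ00004711 had −0.49, −4.25 and −4.09, and the peroxidase P7X probe MZ00026299 had 0.03, 0.20 and −1.86. In the phenylpropanoid list, cinnamoyl CoA reductase (MZ00015899), which leads into lignin, had 1.30, 2.71 and 1.08, and arogenate dehydrogenase MZ00029584, which makes tyrosine, 0.78, 2.34 and 1.78. The putative heat shock protein hsp22 MZ00029223 had −2.11 and −2.15 in replicates 1 and 2 and 0.74 in replicate 3. Farnesyl pyrophosphate synthetase, MZ00014008, of isoprenoid synthesis, had 1.73 in replicate 1 and −3.64 and −3.35 in the other two. Of 25 listed probes of unknown product 9 were positive and 9 negative on all 3 arrays, against 17.0% and 15.6% of all genes. In the fit of 24 arrays 5 positive and 4 negative ones of 14 were called, against 3.87% and 2.29% of all genes there.

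**Figure D3:**
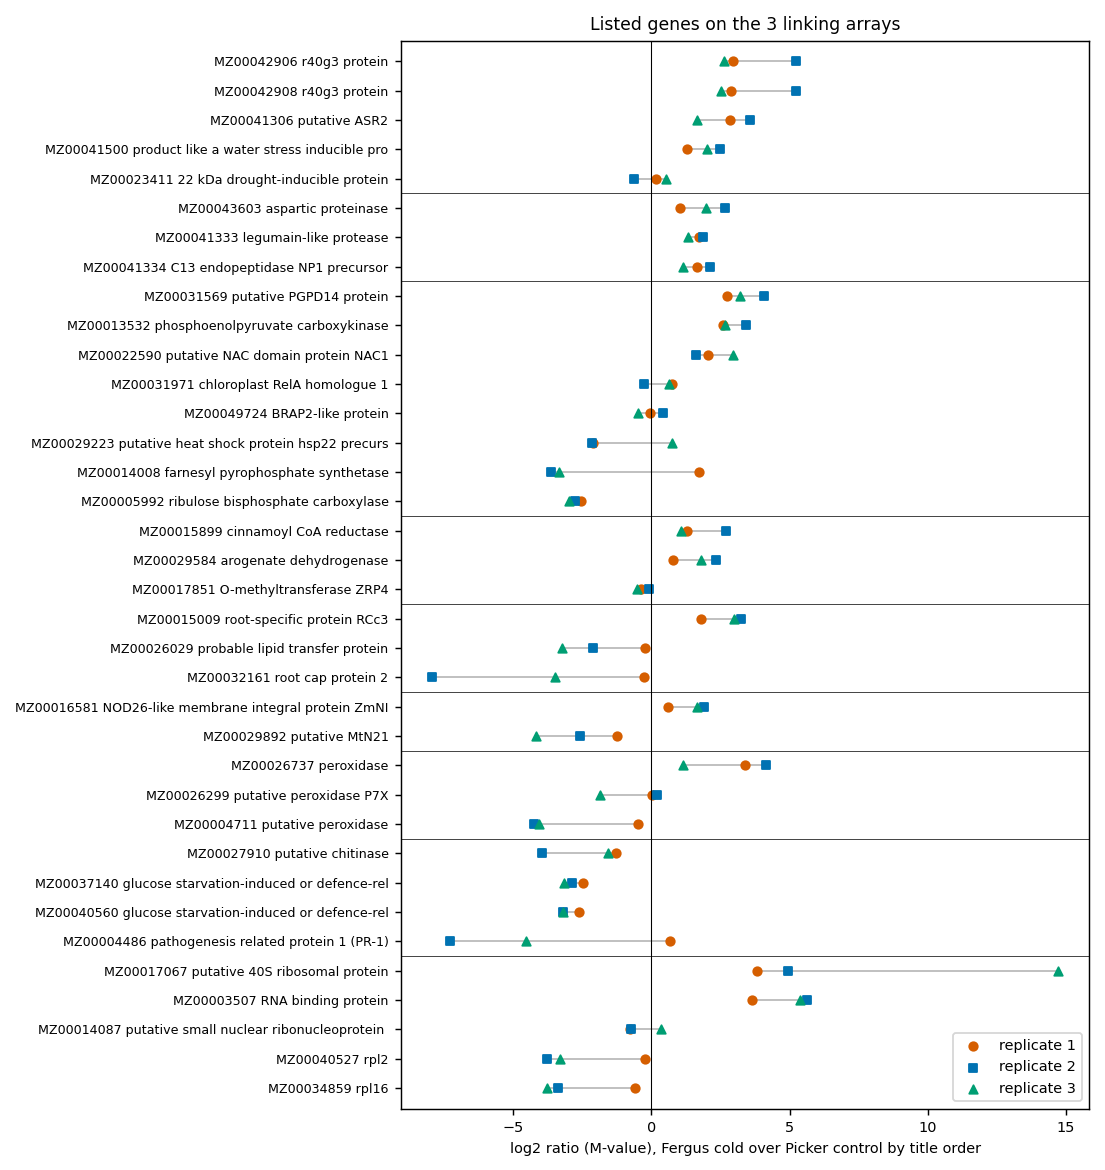
M-values (x axis, log2 ratio by title order) of the listed probes with a value on all 3 linking arrays, grouped by list, with 1 symbol for each replicate and a grey line over their range. Protease, phosphoenolpyruvate carboxykinase and 4 of the 5 water stress probes lie to the right of 0, the 22 kDa drought-inducible protein lies across it, pZSS2 and ribulose bisphosphate carboxylase lie to the left, and replicate 1 is the one nearest 0 for PR-1 (0.68), root cap protein 2 (−0.27) and rpl2 (−0.22).

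The 16 listed probes called in the fit of 24 arrays were listed for their response to cold, and the direct arrays enter that fit and share Fergus cold and Picker control RNA with the linking arrays, so nothing is read from a shared sign. MZ00041708, the unknown protein with primers above, had 1.73, 4.70 and 4.32 on the linking arrays, beside 2.97, 4.00 and 6.04 in Fergus and 2.26, 4.73 and 2.47 in Picker. Of all 105 genes called in that fit, 29 were also called there for the Fergus response (62 of 1705 genes, 3.64%, but 26 with a replicate block). The fit called no gene for the Picker response, where 243 had an unadjusted p under 0.05. On the direct arrays alone 191 of 4706 genes (4.06%) passed in Fergus and 13 of 4377 (0.297%) in Picker. These counts rested on single replicates: in Fergus 251 genes passed without replicate 1, 0 without replicate 2 and 0 without replicate 3, and in Picker 1344, 0 and 0. With 1 missing replicate allowed both were 0, and with robust eBayes they were 308 in Fergus and 116 in Picker. The study, by contrast, reports genes changed by cold in Picker and none in Fergus. Why the counts given here differ from that was not tested.

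**Figure D4:**
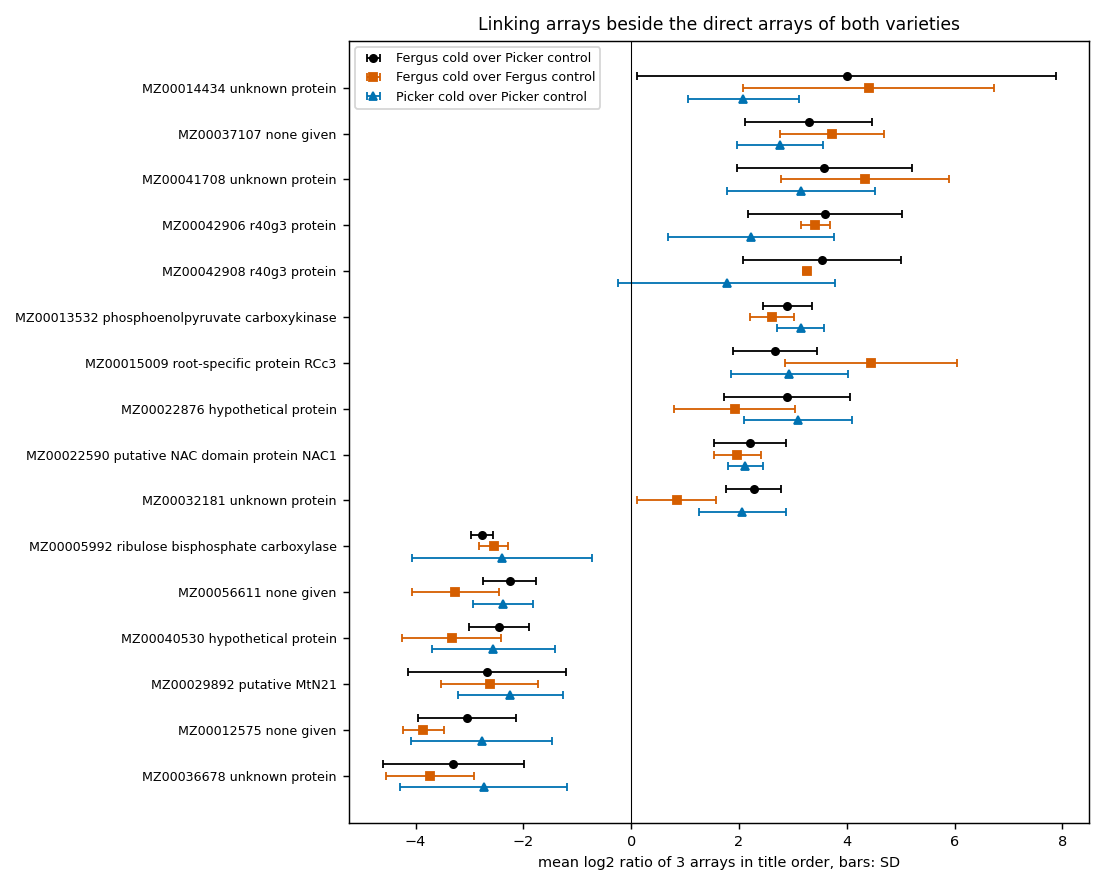
Mean log2 ratio of 3 arrays with the SD as bars (x axis, title order) for the 16 listed probes called in the fit of 24 arrays, with the linking arrays (circles) above the Fergus (squares) and Picker (triangles) responses to cold. For phosphoenolpyruvate carboxykinase the means are 2.89 on the linking arrays, 2.62 in Fergus and 3.15 in Picker.

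The difference between the varieties was taken within each replicate, by adding the Fergus direct ratio to the linking ratio for the control regime, and the Picker direct ratio for the cold regime. Between the varieties in the cold 1 gene of 3691 (0.0271%) was called, with 192 (5.20%) at an unadjusted p under 0.05. MZ00003507, the RNA binding protein, of a class that acts on the processing and stability of transcripts, had 3.65, 5.62 and 5.38 on the linking arrays. Its Picker response to cold was −0.70, 0.16 and 0.11, near 0 in every replicate. The difference of Fergus cold over Picker cold was therefore 4.35, 5.46 and 5.27 (mean 5.03 ± 0.55, SE, adjusted p = 0.0389). It was not called without replicate 2, without replicate 3, without the variance filter, with 1 missing replicate allowed or without the pairing by replicate. The study lists MZ00003507 as raised by cold in Picker and lowered in PR39B29, unlike the Picker values given here. The PR39B29 direct arrays as deposited gave 0.40, 0.71 and −0.09. Why the listed and the deposited values differ was not tested.

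The arrays that measured MZ00003507 differed by variety. It had a value on all Picker and PR39B29 direct arrays, on 1 Fergus direct array and 2 Codisco direct arrays, and on none of the Codisco cold against Fergus control arrays. On the PR39B29 cold against Codisco control arrays it was −3.59, −3.21 and −5.21, and on the Picker cold against PR39B29 control arrays 0.09, 0.77 and 0.89. The 0.77 is from the replicate 2 array that is nearly identical to a PR39B29 direct array, so it may not compare Picker with PR39B29. In title order the remaining ratios put Fergus and Codisco above Picker and PR39B29, the less tolerant pair above the more tolerant one. With the sign turned it is the other way round, and the transcript is then the more abundant in the varieties whose direct arrays measured it in every replicate.

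Another pair of probes without a product was called beside it in 5 of the alternatives, and they are named after their values were seen. Among these alternatives was the one without replicate 1, whose fit gave every gene the same SE whatever its own spread. MZ00024283 had 2.48, 5.03 and 6.59 on the linking arrays, and 3.62, 4.66 and 5.52 between the varieties in the cold (mean 4.60 ± 0.59, SE, adjusted p = 0.0638). It had a value on all Picker and all Codisco direct arrays and on no Fergus or PR39B29 direct array. The Codisco cold against Fergus control arrays gave −6.88, −3.31 and −1.98, and the PR39B29 cold against Codisco control arrays 3.27, 4.08 and 6.37, so this probe set Fergus and PR39B29 apart from Picker and Codisco. MZ00006019 had 1.87, 4.23 and 5.46 on the linking arrays and 3.73, 3.81 and 5.62 between the varieties in the cold (adjusted p = 0.0749), again with values on every Picker direct array and on no Fergus one. The lowest means between the varieties in the cold, none of them called, were those of MZ00028114, MZ00055967 and MZ00041601. MZ00028114 had linking ratios near 0, at 0.01, 0.63 and 0.46, and its difference of −2.13, −3.24 and −7.92 came from a Picker response of 2.14, 3.87 and 8.38.

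MZ00017067, a putative 40S ribosomal protein, had the highest mean on the linking arrays, 3.81, 4.93 and 14.71. The mean of 7.82 rested on replicate 3, whose value lay far above the rest (SD 6.00). The Codisco cold against Fergus control arrays gave −6.07, −2.80 and −1.82, while the Picker, PR39B29 and Codisco direct arrays and both linking arrays without Fergus lay between −1.22 and 1.02. The 1.02 is from the Picker cold against PR39B29 control array of replicate 2, of the near-identical pair. The large ratios of this probe were thus those in which Fergus RNA met that of another variety. It had a value on 1 Fergus direct array and on all direct arrays of the other varieties.

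Between the varieties under the control regime none of 3529 genes was called (0%), with 417 (11.8%) at an unadjusted p under 0.05. The smallest p belonged to MZ00014019, with no product, at −4.78, −5.31 and −4.68 (mean −4.92 ± 0.39, SE, adjusted p = 0.0537). Its linking ratios were even across replicates, at −4.46, −4.33 and −4.25 (SD 0.11), and its Fergus response to cold was small, 0.31, 0.98 and 0.43. On the Picker direct arrays it was −5.52 and −2.18 as cold over control in replicates 1 and 3, with no value in replicate 2. On all other kinds of array it lay between −1.09 and 1.23. The Picker control RNA was the sample common to its large ratios. The fit of 24 arrays called 1 gene here, MZ00028493, named after its values were seen, at 3.84 ± 0.72 (SE, adjusted p = 0.0231, and 0.0396 with a replicate block). It had 2.29, 3.98 and 3.78 between the varieties under control on the Fergus and Picker arrays (adjusted p = 0.164), beside linking ratios of 0.63, 2.09 and 0.39. MZ00013381 had −5.18, −6.55 and −4.47 between the varieties under control (adjusted p = 0.0716), and its linking ratios were −2.25, −4.12 and 0.50, beside a Fergus response of 2.93, 2.43 and 4.98.

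On the positive side, MZ00017352 had 5.66, 5.66 and 3.86 under control (adjusted p = 0.0716) and 3.27, 3.87 and 2.89 in the cold (adjusted p = 0.154). MZ00014094 had 3.77, 3.38 and 5.22 under control and MZ00037552 had 3.70, 4.36 and 3.23, and both were called on the linking comparison in the fit of 24 arrays, at 2.79 ± 0.73 (adjusted p = 0.0289) and 2.70 ± 0.55 (adjusted p = 0.0158). Their Picker responses lay between −0.60 and 0.64, and the varieties in the cold differed by 2.98 and 2.78 on average, close to their mean linking ratios of 3.11 and 2.96. Of the probes with the highest or lowest means under control, MZ00031963 had 5.65, 2.21 and 6.45 and MZ00021450 −2.13, −3.24 and −8.63.

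**Figure D5:**
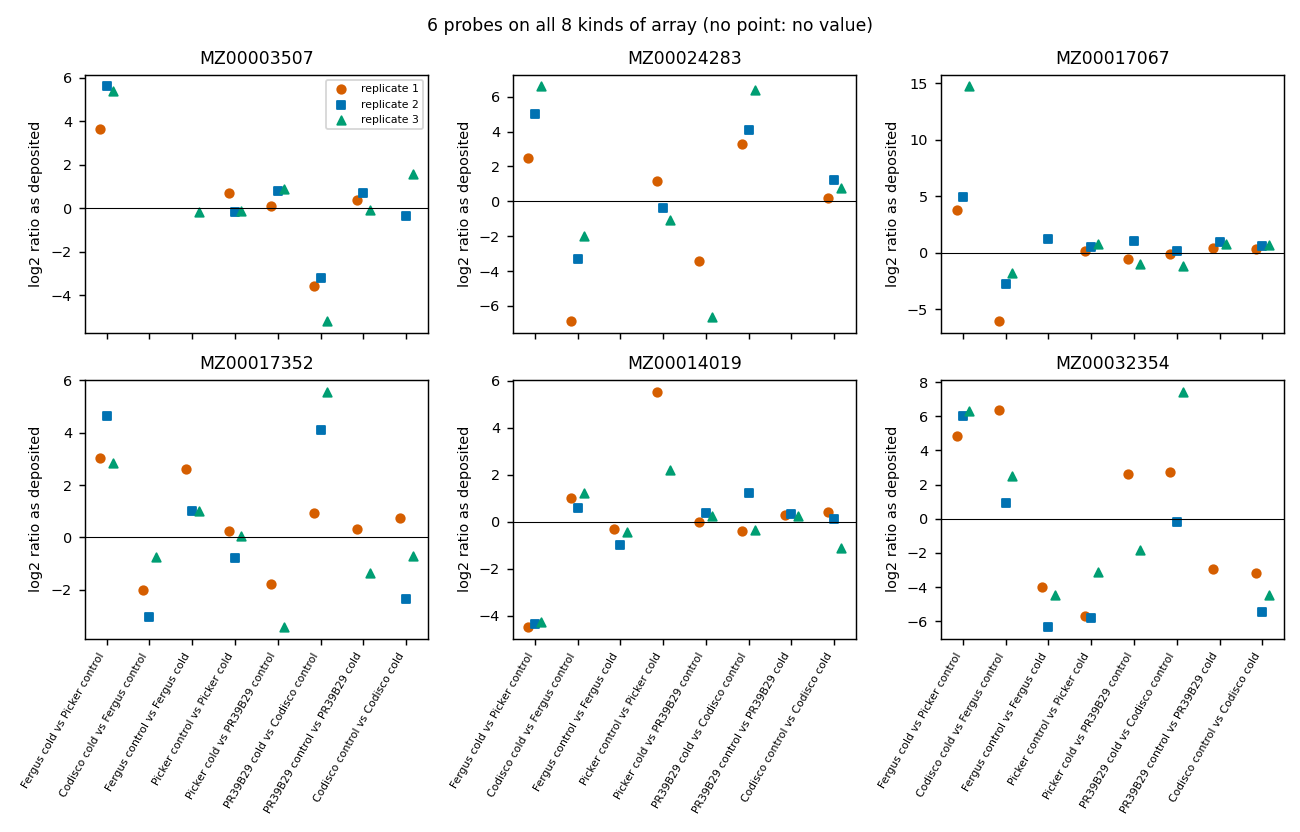
M-values as deposited (y axis) of 6 probes on the 8 kinds of array (x axis), with 1 symbol for each replicate and no symbol where the array had no value. MZ00032354 is far from 0 on the Fergus and Picker direct arrays as well. MZ00003507, MZ00024283, MZ00017067 and MZ00017352 lie far from 0 on the Fergus cold vs Picker control arrays and nearer 0 on the Picker direct arrays. MZ00014019 is far from 0 only where Picker control RNA was hybridised.

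The response of Fergus to cold differed from that of Picker in no gene by the test. The linking arrays cancel from this difference, which came from the direct arrays alone. Of 3474 genes 0 (0%) were called and 105 (3.02%) had an unadjusted p under 0.05. The highest mean was that of MZ00042494, with a Fergus response of 3.73, 4.84 and 4.89 and a Picker response of −1.92, 2.92 and 2.12 (difference 3.45 ± 0.83, SE, adjusted p = 0.875). Its linking ratios were 1.96, 5.88 and 2.21. The lowest was MZ00016928, with −3.52, −1.83 and −5.28 in Fergus and −2.56, 2.07 and 1.27 in Picker.

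Plastids of dark-grown roots are not green, and their genome codes for subunits of the photosystems, the cytochrome complex, NADH dehydrogenase, ATP synthase, ribosome and polymerase. Of 64 probes named as plastid genes of those groups, 15 had a value on all 3 linking arrays, 11 of them negative and 1 positive on all 3, against 15.6% and 17.0% of all genes. The measured values had medians of −0.36, −0.45 and −0.85 in replicates 1, 2 and 3, against 0.01, 0.00 and 0.02 over all genes. rps19, MZ00034878, a ribosomal protein, had −0.44, −3.57 and −2.92 and was called in the fit of 24 arrays at −2.43 (adjusted p = 0.0481). Of 6 plastid probes in that fit, it was the 1 called. The ribosomal probes rpl16, MZ00034859, and rpl2, MZ00040527, had −0.61, −3.37 and −3.80, and −0.22, −3.77 and −3.33, and both names are also those of mitochondrial genes. psbA, MZ00034843, which codes for a photosystem reaction centre protein, had −0.19, −1.96 and −2.53. In each of these 4, replicate 1 was nearest 0. Turned to cold over control, the plastid medians were −0.76, −0.92 and −0.02 in Fergus and −1.10, −1.58 and −0.68 in Picker. The differences between the varieties were not uniform. Their medians for Fergus over Picker were 0.28, 0.55 and −0.98 under control and 1.13, 0.60 and −0.70 in the cold.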

How the data were processed

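Each RNA pair was hybridised to a glass array of 46128 spots, 43536 of them maize probes. Background correction by the minimum method, print-tip loess within arrays, scaling between arrays and removal of bad spots were done by the authors, with limma among their tools (version not given in the sources used). The log2 ratio (M-value) of each spot that they deposited was used unchanged. A second table named the spots by position; its 96 columns of single-slide values match no sample's labels and were not used, so signal above background is unknown. Spots of a probe were averaged. By variance over the 24 arrays the top 40% of genes were kept (16945 of 42364), and those with a value on every array of a comparison were tested against 0 with limma 3.58.1 in R 4.3.3, two-sided, with Benjamini and Hochberg adjustment and a threshold of 0.05. The tests were tried on simulated data, from which no error rate for these arrays is claimed. Replicates are biological by the labels. The arrays of a replicate form 1 loop, so ratios were added within replicates; deviations of linking and turned direct ratios correlated at 0.66, 0.49 and 0.56 with the same number in Fergus and at 0.56, 0.43 and 0.07 in Picker, where linking replicate 3 correlated more with direct replicate 2 (0.38). Named genes are the listed products, plastid symbols found in the maize reference table, called genes, and, where none was called, the 3 highest or lowest means with an unadjusted p under 0.05 and 1 sign in all replicates; others are named after their values were seen. Members, lists and tests were chosen with earlier results of these data known.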

Additional observations from a re-analysis of the deposited data

How the results depend on the processing

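For Fergus cold over Picker control the count of 0 stood under each alternative that used only the linking arrays: no variance filter, a filter over turned arrays, centring, scaling, values beyond 10 left out, 1 missing replicate allowed, robust eBayes, and without each replicate (0 to 0). The fit of all 24 arrays called 105 genes, 98 with a replicate block (an intercept for each replicate), and, chosen after seeing the data, 75 without the near-identical arrays and 309 without the linking array of replicate 1. Genes with a value on every array entered these fits, a smaller set, so the counts do not compare like with like.

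For Fergus control over Picker control the count of 0 became 7 without the variance filter, 1 with arrays centred, 5 with values beyond 10 left out, 5 with robust eBayes, 1 in the fit of 24 arrays and 1 there with the replicate block, 6 without the near-identical arrays and 1 without the linking array of replicate 1. It was 0 without each replicate and with no replicate block. With the direct arrays read by the dye labels it was 180, but the ratios then no longer cancel in the loop.

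For Fergus cold over Picker cold the count of 1 became 3 with a filter over turned arrays, with scaling, with values beyond 10 left out and with robust eBayes. It was 0 without the variance filter, with 1 missing replicate allowed, with no replicate block and in each fit of the loop, with or without the replicate block, where MZ00003507 lacked values. Without 1 replicate it ranged over 0 to 53, the 53 being without replicate 1. The fit without replicate 1 gave every gene the same SE, 0.87, so the spread of a single gene did not count there. The dye labels gave 64. The response difference stayed at 0 in every alternative. Except where its construction says so, the cause of a shift was not tested.

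With the sign of all arrays turned, every count stays and positive and negative change places. Of 88 named genes tested on the linking arrays, none changed sign under centring or scaling, nor did any of the 83 still tested with values beyond 10 left out. Leaving out a replicate turned the mean of 4 genes, over −0.23 to 0.35 for MZ00023411, −0.66 to 1.08 for MZ00056914, −0.91 to 0.12 for MZ00026299 and −0.28 to 0.17 for MZ00049724. With 3 arrays, 2 of which agree, only large and even ratios can be called, and signal over background is not known.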
